A study of Mus musculus with 2 samples.

Results

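The comparison of 4CB with 2CB pseudoblastocysts held 12 of the 24 pseudoblastocysts profiled in the series, 6 of each kind, and was chosen by blastomere stage because these 12 embryos shared 1 library pool. A 2CB embryo was grown from 1 blastomere taken from a 2-cell embryo at 24 h postinsemination (hpi), and a 4CB embryo from 1 blastomere of a 4-cell embryo at 48 hpi. All 12 came from B6D2F1 oocytes fertilized in vitro with ICR spermatozoa, had lost the zona pellucida before the blastomeres were separated, and were collected at 96 hpi as whole embryos for RNA sequencing. The other 12 embryos, 1C (a zona-free 1-cell embryo) and 8CB (1 blastomere of an 8-cell embryo), lay in a second pool and enter here only as levels set beside the results. The 2 stages differed in the stage of the donor embryo and also in the time spent as an isolated blastomere and its progeny, which was 72 h for 2CB and 48 h for 4CB embryos, and these 2 differences cannot be told apart. A pseudoblastocyst was any embryo with a cavity, taken without a check for an inner cell mass, so that empty trophectoderm vesicles could be among the 12. Which blastomeres came from the same donor embryo is not given in the sources used here, and p-values therefore measure the spread between these embryos.

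A blastocyst has an outer trophectoderm, which pumps fluid into the cavity and later forms placenta, and an inner cell mass that sorts into epiblast and primitive endoderm. A blastomere that is freed early keeps dividing on the embryo's own schedule and makes a smaller blastocyst with fewer cells. Hspa1b, Phlda1 and Jun, the genes called by edgeR, belong to a pair of rapid response systems. Heat shock factor 1 binds inverted repeats of the bases GAA in promoters and drives the inducible chaperones of the HSP70 family, among them Hspa1a and Hspa1b, which are also known for early transcription when the mouse zygotic genome is first activated. Growth factor signalling through the kinase ERK induces immediate early genes, such as the AP-1 subunit Jun, followed by genes that restrain the same pathway, such as Dusp6 and Spry2.

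The deposited UMI counts (unique molecular identifiers, tags meant to count each captured transcript once) totalled between 332867 and 1507471 per 2CB embryo and between 132725 and 1130360 per 4CB embryo. The 4CB minus 2CB difference in mean total was -326661 UMIs, with a two-sided p of 0.212 (exact permutation test, n = 6 and 6). It was -168803 UMIs without 2CB replicate 2 (exact permutation p = 0.424) and -474428 UMIs without 4CB replicate 4 (exact permutation p = 0.0303). After each embryo was thinned to 132725 UMIs, 9573 ± 188 genes were detected in 2CB and 9635 ± 415 in 4CB embryos (SD, exact permutation p = 0.742, n = 6 and 6). Levels are given below as CPM, normalized so that an embryo's tested genes sum to about 1000000, and they compare 1 gene between embryos. An embryo is a bulk sample, and fewer cells of a type cannot be told apart from less RNA per cell.

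Few genes were called between the stages, which does not show that few genes differed. Of 5347 genes tested with edgeR's quasi-likelihood test, 3 passed an adjusted p of 0.1, which is 0.0561% of the genes tested, and all 3 were higher in 4CB embryos. They were Hspa1b (adjusted p = 0.0195), Phlda1 (adjusted p = 0.0248) and Jun (adjusted p = 0.0659). DESeq2 called 11 genes (0.206%), the same 3 with 5 more that were higher and 3 that were lower in 4CB. Over all genes tested, the median log2 fold change was -0.00, with 2662 genes above and 2685 below 0. At an unadjusted p of 0.05, 150 genes were higher (2.81%) and 139 lower (2.6%) in 4CB embryos. For 6 genes (0.112%) the levels of all 4CB embryos lay above those of all 2CB embryos, and for 9 (0.168%) they lay below.

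**Figure D1:**
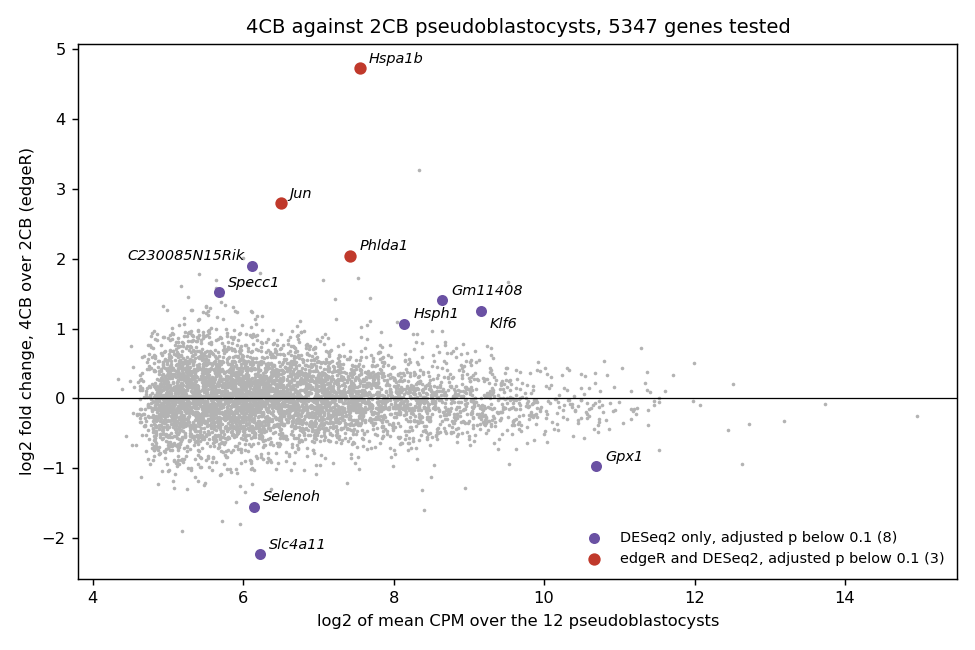
Fold change against level for the 5347 genes tested. The x axis gives the log2 of the mean CPM over the 12 pseudoblastocysts and the y axis the edgeR log2 fold change of 4CB over 2CB; each grey point is 1 gene, red points are the 3 genes that edgeR and DESeq2 called and purple points the 8 that DESeq2 alone called. Hspa1b stands highest at 4.72, and most genes lie close to 0.

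Hspa1b and Hspa1a encode inducible HSP70, a chaperone that binds unfolded proteins. Hspa1b (ENSMUSG00000090877.3, GRCm38 chr17:34956436-34959238, minus strand) was close to absent in 2CB embryos, at 22.6, 34.1, 0, 0, 9.19 and 6.54 CPM in replicates 1 to 6. In 4CB embryos it stood at 299, 385, 446, 543, 0 and 500 CPM. Thus 5 of the 6 4CB embryos were far above every 2CB embryo, while 4CB replicate 5 had no UMI at all. The log2 fold change was 4.72 (SE 0.74, edgeR adjusted p = 0.0195), from means of 12.1 ± 13.6 and 362 ± 197 CPM (SD, n = 6 and 6). Hspa1b passed the filter on low counts through the 5 high 4CB embryos and 2CB replicate 2, so its adjusted p carries that limit. For 4CB replicate 5, the shallowest library, a count of 0 allowed up to 24.5 CPM (3 UMIs), below the level in each other 4CB embryo.

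Hspa1a (ENSMUSG00000091971.3, chr17:34969190-34972156, minus strand), its neighbour and close paralog, followed the same division. Its levels were 2.82, 21.8, 5.53, 6.91, 0 and 16.3 CPM in 2CB embryos and 370, 378, 429, 477, 16.3 and 548 CPM in 4CB embryos. The same 5 4CB embryos were high, and 4CB replicate 5, with 2 UMIs, lay inside the 2CB range. Hspa1a missed the filter on low counts and so was not among the 5347 genes. When every gene with at least 5 UMIs in 6 embryos was tested, its log2 fold change was 5.25 (SE 0.66). It passed that filter mainly through the 5 high 4CB embryos, with 2CB replicates 2 and 6 (30 and 5 UMIs), so the estimate is a description and no test. The longest annotated transcripts of Hspa1a and Hspa1b were 85.3% identical over their whole length but 49.8% identical over their last 300 bases, the end that 3′ counting reads. Whether reads were shared between the copies was not tested.

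The promoters of both HSP70 genes and of Jun are shown because a heat shock unit lies in each, and that of Klf6 because it shares a second motif with Jun. Each run is the RefSeq sequence of GRCm38.p6 from 250 bases before to 50 bases after the annotated start, 5′ to 3′ on the strand of the gene. For Hspa1b (chr17:34959189-34959488, minus), Hspa1a (chr17:34972107-34972406, minus) and Jun (chr4:95052173-95052472, minus), capitals mark the heat shock unit GAANNTTC and, in Jun, also TGACATCA, a site type that binds AP-1 and ATF factors. For Klf6 (chr13:5861239-5861538, plus), capitals mark TGACATCA.
Hspa1b: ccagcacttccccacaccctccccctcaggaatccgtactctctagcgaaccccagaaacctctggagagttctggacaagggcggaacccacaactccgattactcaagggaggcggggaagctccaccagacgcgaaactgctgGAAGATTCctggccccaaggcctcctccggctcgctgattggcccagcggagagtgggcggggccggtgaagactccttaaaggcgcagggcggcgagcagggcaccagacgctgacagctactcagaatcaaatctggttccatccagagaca
Hspa1a: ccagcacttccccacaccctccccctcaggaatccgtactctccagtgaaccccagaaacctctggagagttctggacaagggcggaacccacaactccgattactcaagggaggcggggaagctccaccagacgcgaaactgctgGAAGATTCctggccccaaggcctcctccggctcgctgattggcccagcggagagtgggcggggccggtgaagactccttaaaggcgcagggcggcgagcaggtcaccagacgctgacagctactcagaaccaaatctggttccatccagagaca
Jun: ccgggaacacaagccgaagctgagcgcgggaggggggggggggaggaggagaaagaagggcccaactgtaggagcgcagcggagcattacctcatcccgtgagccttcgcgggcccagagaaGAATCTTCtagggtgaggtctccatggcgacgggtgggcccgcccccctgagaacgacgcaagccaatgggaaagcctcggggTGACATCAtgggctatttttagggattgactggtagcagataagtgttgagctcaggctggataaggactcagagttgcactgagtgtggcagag
Klf6: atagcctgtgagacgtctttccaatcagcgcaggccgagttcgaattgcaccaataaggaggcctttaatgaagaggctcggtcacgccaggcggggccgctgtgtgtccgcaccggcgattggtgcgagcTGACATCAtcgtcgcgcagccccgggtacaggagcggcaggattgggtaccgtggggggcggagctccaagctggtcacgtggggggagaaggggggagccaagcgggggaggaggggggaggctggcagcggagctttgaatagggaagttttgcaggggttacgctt
The Hspa1a and Hspa1b promoters differed at 4 of the 300 bases. Both held GAANNTTC 104 bases before the start and CCAAT on the opposite strand 67 bases before it. Jun held GAANNTTC 128 bases, CCAAT 65 bases and TGACATCA 45 bases before its start, and Klf6 held TGACATCA 119 bases before its start. Over all 32851 promoters of the table, GAANNTTC was present in 7.86%, TTCNNGAA in 8.52%, CCAAT in 37.4%, TGANTCA in 7.81%, TATAAA in 13.6%, the CArG box in 1.63% and TGACATCA in 3.62%, counted on both strands. In the windows of Hspa1b, Hspa1a, Jun and Klf6 the CArG box was not found, nor were TATAAA or TGANTCA. Of the other DESeq2 calls, Hsph1 held TTCNNGAA 33 or 54 bases before its 2 annotated starts and, after each start, another TTCNNGAA that overlaps a GAANNTTC, and Specc1 held TTCNNGAA 85 bases before 1 of its 2 annotated starts. The windows of Klf6, Selenoh and Gpx1 held neither GAANNTTC nor TTCNNGAA, and 15.1% of all promoters held at least 1 of them. Promoters were found for 8 of the 12 genes looked up, and none for Phlda1, C230085N15Rik, Slc4a11 and Gm11408. TGACATCA was searched after the sequences had been seen.

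**Figure D2:**
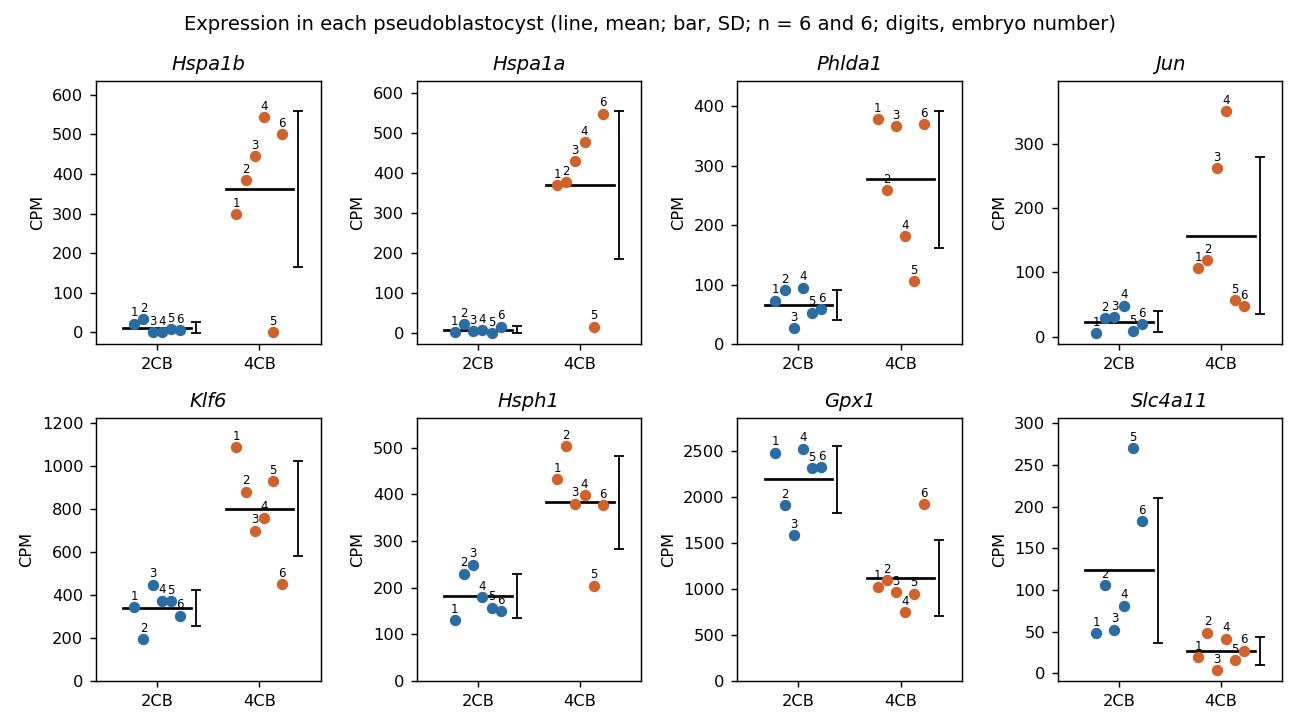
Level of 8 genes in each of the 12 pseudoblastocysts. The y axis gives CPM on a linear scale, each point is 1 embryo with its replicate number (2CB blue, 4CB orange), the line is the mean and the bar the SD over 6 embryos. 4CB replicate 5 stands with the 2CB embryos for Hspa1b and Hspa1a, whereas Phlda1 and Klf6 show no overlap between stages and Gpx1 and Slc4a11 are lower in 4CB.

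Few other genes of the heat shock list stood apart. Of 50 chaperone and co-chaperone genes, 32 were tested, 1 passed the adjusted threshold (Hspa1b), 4 were higher at an unadjusted p of 0.05 (12.5%, against 2.81% of all genes) and 0 were lower. The median log2 fold change was 0.14. Hsph1, an HSP110 exchange factor that works with HSP70, was called by DESeq2 alone (adjusted p = 0.0144) with an edgeR log2 fold change of 1.07 (SE 0.25, adjusted p = 0.284). Its levels ran from 130 through a median of 168 to 249 CPM in 2CB and from 204 through 389 to 504 CPM in 4CB embryos, and only 4CB replicate 5 fell inside the 2CB range. Hspb8, a small heat shock protein, had a log2 fold change of 1.69 (SE 0.56, edgeR adjusted p = 0.846), and Hspa4l, another HSP110 member, one of 1.42 (SE 0.64, edgeR adjusted p = 0.894). In both genes a single 2CB embryo, replicate 1, was high, at 172 and 290 CPM, and 4CB replicate 5 was low, at 32.7 and 24.5 CPM.

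Other chaperones, inducible ones among them, were not called by edgeR. Hspa8, the constitutive HSP70, had a log2 fold change of 0.49 (SE 0.51), Hsp90aa1, the inducible HSP90, one of 0.33 (SE 0.33) and Hsp90ab1, the constitutive HSP90, one of 0.10 (SE 0.25). Hspe1, the mitochondrial co-chaperonin, stood at 0.00 (SE 0.30). Dnajb1, an inducible HSP40 that hands clients to HSP70, had levels between 28.2 and 40.8 CPM in 2CB and between 16.3 and 74.1 CPM in 4CB embryos, where replicate 5 was lowest and the other 5 embryos lay above every 2CB embryo. Its log2 fold change was 0.68 (SE 0.33, edgeR adjusted p = 0.894). The summed list held between 14699 and 19388 CPM in 2CB and between 15894 and 21047 CPM in 4CB embryos, and the stages overlapped.

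Phlda1 and Jun led the genes of growth factor response. Phlda1 (ENSMUSG00000020205.8, chr10:111506286-111508645, plus strand), a pleckstrin homology-like protein induced by growth factors, stood at 73.3, 90.8, 27.7, 95.1, 53.1 and 58.8 CPM in 2CB and at 378, 259, 367, 182, 106 and 370 CPM in 4CB embryos. Every 4CB embryo exceeded every 2CB embryo, with 4CB replicate 5 nearest to the 2CB range. The log2 fold change was 2.04 (SE 0.34, edgeR adjusted p = 0.0248), from 66.4 ± 25.3 to 277 ± 114 CPM (SD, n = 6 and 6). Without 4CB replicate 3, the edgeR adjusted p of Phlda1 was 0.102 and 1 gene, Hspa1b, was called. Phlda1 overlaps the antisense gene Gm28592 on chromosome 10, and the strand setting of the counting is not given in the sources used here.

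Jun (ENSMUSG00000052684.4, chr4:95049034-95052222, minus strand), a subunit of the transcription factor AP-1, stood at 5.64, 29.0, 30.4, 48.4, 8.17 and 19.6 CPM in 2CB embryos. In 4CB embryos it stood at 106, 119, 263, 351, 57.2 and 47.9 CPM. The ranges met only where 4CB replicate 6, the lowest, fell just under 2CB replicate 4, the highest. The log2 fold change was 2.79 (SE 0.52, edgeR adjusted p = 0.0659), and counts were low, with 95 UMIs in all 2CB and 561 in all 4CB embryos, 379 of them in 4CB replicate 4. Jun was called in 6 of the 12 fits that left out 1 embryo, and its adjusted p was 0.302 when all 24 pseudoblastocysts were fitted together. It overlaps the antisense gene Junos.

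Klf6 (chr13:5861482-5870394, plus strand), a zinc finger transcription factor of the immediate early class, was more abundant and was called by DESeq2 (adjusted p = 0.00176) but not by edgeR (adjusted p = 0.127). Its levels ran from 195 through a median of 357 to 448 CPM in 2CB and from 452 through 821 to 1090 CPM in 4CB embryos. The stages did not overlap, though only by a few CPM between 2CB replicate 3 and 4CB replicate 6. The log2 fold change was 1.24 (SE 0.25).

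Among 45 immediate early and ERK response genes, 14 were tested and 2 passed the adjusted threshold, which 0.0561% of all genes passed. At an unadjusted p of 0.05, 6 were higher (42.9%, against 2.81% of all genes) and 0 were lower (against 2.6%). The median log2 fold change was 0.72, and 11 of the 14 estimates were above 0, compared with 49.8% of all genes tested. Beside Phlda1, Jun and Klf6, the 6 were Dusp6, a phosphatase that switches ERK off (log2 fold change 1.10, SE 0.30), Spry2, an inhibitor of receptor tyrosine kinase signalling (0.93, SE 0.33), and Fosl2, an AP-1 partner of Jun (0.83, SE 0.39). None of these 3 passed the adjusted threshold. Dusp6 ran from 130 to 263 CPM in 2CB and from 164 to 586 CPM in 4CB embryos, and Spry2 from 81.7 to 343 and from 212 to 608 CPM. In both genes the upper 4CB embryos lay beyond the 2CB range while the lower ones were inside it. Jund, Klf4 and Mcl1 had estimates of -0.17 (SE 0.21), -0.23 (SE 0.34) and -0.33 (SE 0.26).

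The classical immediate early genes Fos, Egr1 and Atf3 did not pass the filter on low counts. Fos had 8 UMIs in the 2CB and 30 in the 4CB embryos, Egr1 7 and 15, and Atf3 2 and 25. The counts were uneven: 4CB replicate 3 held 16 of the Fos UMIs, 4CB replicate 1 held 11 of those of Egr1 and 4CB replicate 4 held 16 of those of Atf3. Without a filter, their log2 fold changes were 2.71 (SE 0.90), 2.22 (SE 1.03) and 3.52 (SE 1.15), with edgeR adjusted p-values of 0.238, 0.505 and 0.231. Nr4a1, another classical member under the filter, had 52 UMIs in the 2CB and 19 in the 4CB embryos, with means of 14.5 and 4.43 CPM and a log2 fold change of -1.16 without a filter (SE 0.75, edgeR adjusted p = 0.578). Of the 31 members not tested, 21 had a higher and 8 a lower mean CPM in 4CB embryos (72.4% and 27.6% of the 29 with a UMI), and 2 had no UMI. Of all 16176 genes with a UMI that were not tested, 48.4% had a higher and 51.6% a lower mean CPM in 4CB embryos. The summed level of the 45 listed genes was 1912 to 2553 CPM in 2CB and 2859 to 4330 CPM in 4CB embryos, without overlap. Without Klf6, Phlda1 and Jun, the 3 called by either tool, the rest summed to 1529 to 2036 CPM in 2CB and 1764 to 3000 CPM in 4CB embryos, and 4CB replicates 4 and 5 lay inside the 2CB range. The list was written with the calls of Phlda1 in these embryos known, so its count and its sum are descriptions.

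**Figure D3:**
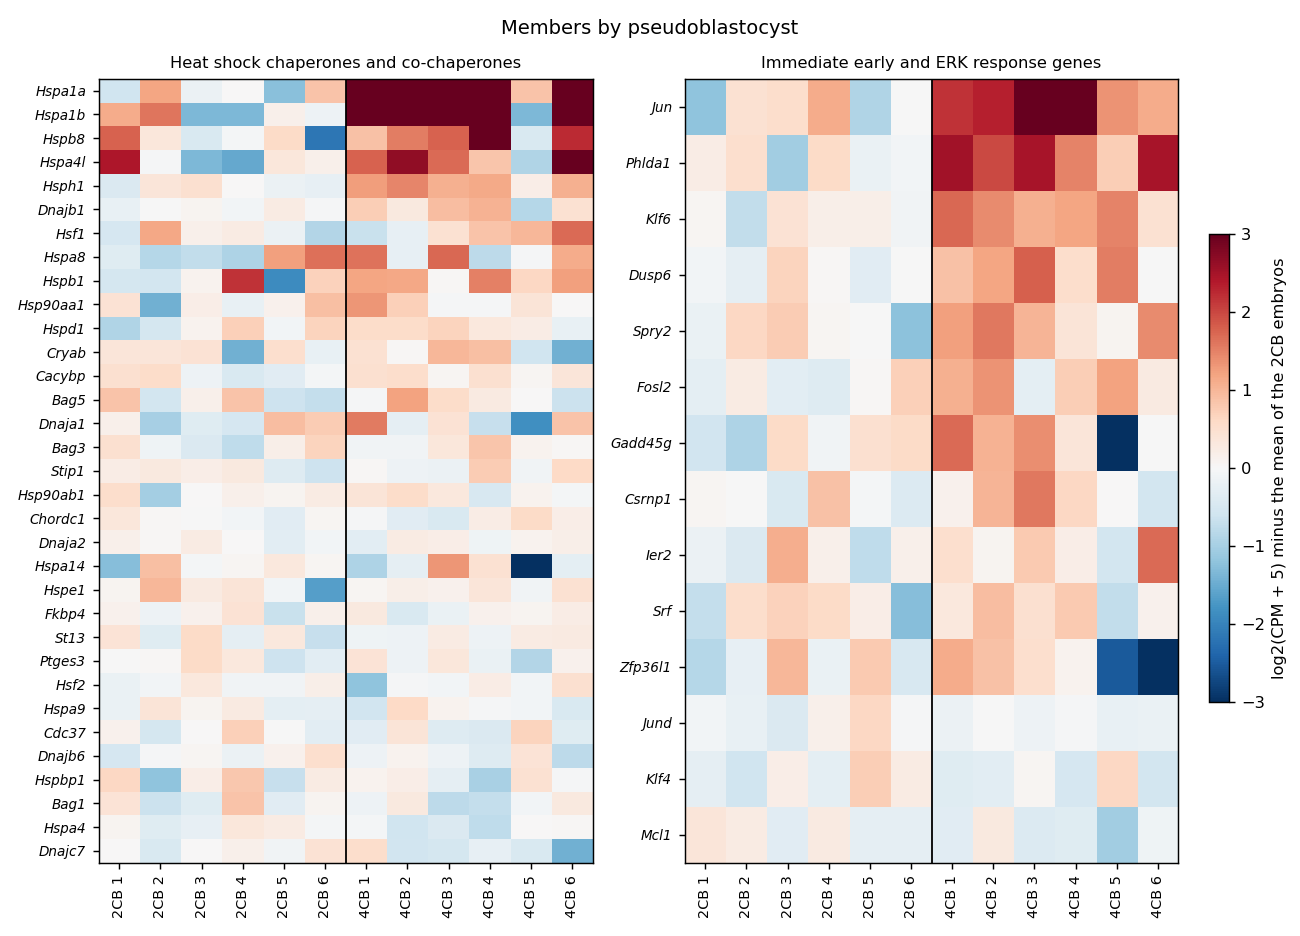
Members of the heat shock list (left, the 32 tested genes and Hspa1a) and of the immediate early list (right, the 14 tested genes) in each pseudoblastocyst. Colour gives log2(CPM + 5) minus the mean of the 2CB embryos for that gene, red above and blue below, and colours are capped at 3 in either direction; the line divides 2CB from 4CB embryos. The top 2 heat shock rows are dark red in 5 of 6 4CB embryos, and most rows below the fifth are pale in both stages.

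The levels of these genes in the other pool, on a common scale for all 24 embryos, are set beside them with no test, since pool and stage cannot be told apart there. Hspa1b averaged 14.0 ± 14.3 CPM in 1C and 17.9 ± 11.1 CPM in 8CB embryos (SD, n = 6 and 6), near the level of 2CB embryos. Jun averaged 47.5 ± 37.7 and 30.4 ± 34.5 CPM, and Phlda1 84.8 ± 34.3 and 55.0 ± 37.9 CPM. Hsph1 averaged 155 ± 66.2 and 159 ± 74.9 CPM. Klf6 averaged 80.1 ± 69.9 and 32.7 ± 22.7 CPM and reached at most 151 and 57.3 CPM.

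The remaining DESeq2 calls that were higher in 4CB embryos were 1 coding gene and a pair of loci that do not encode known proteins. Specc1, a coiled-coil protein of the cytoskeleton, ran from 13.1 to 38.5 CPM in 2CB and from 43.3 to 123 CPM in 4CB embryos without overlap (log2 fold change 1.52, SE 0.35, DESeq2 adjusted p = 0.0174). C230085N15Rik, a locus of undetermined type inside the span and on the strand of Satb1, had a log2 fold change of 1.90 (SE 0.41, DESeq2 adjusted p = 0.00517). Gm11408, a processed pseudogene on chromosome 4, had one of 1.41 (SE 0.34, DESeq2 adjusted p = 0.0384). Whether the last 2 loci shared reads with Satb1 or with a parent gene was not tested.

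The 3 genes that DESeq2 called lower in 4CB embryos were Gpx1, Selenoh and Slc4a11. Gpx1, the cytosolic glutathione peroxidase that removes hydrogen peroxide, ran from 1583 through a median of 2312 to 2522 CPM in 2CB and from 751 through 995 to 1917 CPM in 4CB embryos (log2 fold change -0.97, SE 0.24, DESeq2 adjusted p = 0.0852). Only 4CB replicate 6 reached the 2CB range. Selenoh, a nuclear redox selenoprotein, fell from 106 ± 31.4 to 35.1 ± 15.2 CPM (log2 fold change -1.55, SE 0.34, DESeq2 adjusted p = 0.0152), and the 2 stages overlapped only between 52.6 and 55.2 CPM. It shares its strand with the longer gene model Gm28635. Slc4a11, a membrane transporter of the bicarbonate transporter family, stood at 47.9, 106, 52.6, 81.2, 271 and 183 CPM in 2CB and at 19.7, 49.0, 4.24, 41.7, 16.3 and 27.4 CPM in 4CB embryos (log2 fold change -2.23, SE 0.52, DESeq2 adjusted p = 0.0174). The edgeR adjusted p was 0.327 for Gpx1, 0.197 for Selenoh and 0.252 for Slc4a11.

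The antioxidant list, which holds Gpx1 itself and was written with earlier results known, leaned the same way without a call by edgeR. Of 37 genes 23 were tested, 0 were higher and 3 lower at an unadjusted p of 0.05 (13.0%, against 2.6% of all genes), and 19 of the 23 estimates were below 0 (median -0.28). Mt1, a metallothionein that binds zinc and copper, was among the most abundant transcripts and ran from 5161 to 14874 CPM in 2CB and from 3439 to 4886 CPM in 4CB embryos, all of them below every 2CB embryo (log2 fold change -0.94, SE 0.27, edgeR adjusted p = 0.678). Mt2 had an estimate of -0.45 (SE 0.25), Glrx one of -0.84 (SE 0.39) and Prdx1 one of -0.47 (SE 0.31). Slc39a14, a zinc and manganese importer, ran from 50.1 to 76.6 CPM in 2CB and from 19.7 to 41.7 CPM in 4CB embryos, again without overlap (log2 fold change -0.91, SE 0.30, edgeR adjusted p = 0.852). Sod1, Txn1 and Txnrd1 had estimates between -0.06 and 0.00.

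Other genes whose stages did not overlap were not called by either test, and the shares without overlap were near those of a random division. Above the 2CB range lay Frmd4b, a scaffold protein (172 to 476 against 72.6 to 167 CPM), Peak1, a pseudokinase of growth factor signalling (138 to 197 against 56.4 to 123 CPM), and Ccdc18 (32.7 to 68.5 against 8.71 to 30.4 CPM). Below it lay Mfge8, a secreted protein that binds phosphatidylserine (89.0 to 149 against 163 to 284 CPM), S100pbp (87.0 to 178 against 186 to 248 CPM) and Mmadhc, which acts in vitamin B12 metabolism (14.0 to 34.3 against 36.0 to 87.1 CPM). Mt1, Slc39a14, the lipid transfer protein Vps13c and 3 genes of mitochondrial proteins, Dnajc15, Minos1 and Cox6b1, completed the 9. The log2 fold changes of the last 3 were -0.74 (SE 0.30), -0.50 (SE 0.22) and -0.46 (SE 0.22), with edgeR adjusted p-values of 0.886, 0.886 and 0.894.

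Lists of housekeeping machinery had medians slightly below 0 in 4CB embryos and no gene called by edgeR. Among 65 nuclear-encoded electron transport and ATP synthase genes, 55 estimates were negative with a median of -0.20, 5 were lower and 0 higher at an unadjusted p of 0.05, and 0 passed the adjusted threshold. Among 69 cytosolic ribosomal protein genes, 59 were negative (median -0.23), with 3 lower and 0 higher. Mitochondrial ribosomal proteins (65 tested, median -0.19) and proteasome subunits (31 tested, median -0.13) had 3 and 1 lower and 1 and 0 higher. The lower shares of the 4 lists, 7.69%, 4.35%, 4.62% and 3.23%, stand beside 2.6% of all genes, to which the last 3 are near. Examples are Ndufv3, a subunit of complex I, at -0.84 (SE 0.26, edgeR adjusted p = 0.819) and Mrps10, of the small mitochondrial ribosomal subunit, at 0.91 (SE 0.43, edgeR adjusted p = 0.894). Summed electron transport and ATP synthase levels were 18649 to 22396 CPM in 2CB and 15318 to 18736 CPM in 4CB embryos, with means of 20504 ± 1401 and 17002 ± 1199 CPM (SD, n = 6 and 6), and overlapped at the edge. Summed ribosomal protein levels ran from 53223 to 93486 CPM in 2CB and from 49116 to 89009 CPM in 4CB embryos, and the stages overlapped.

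**Figure D4:**
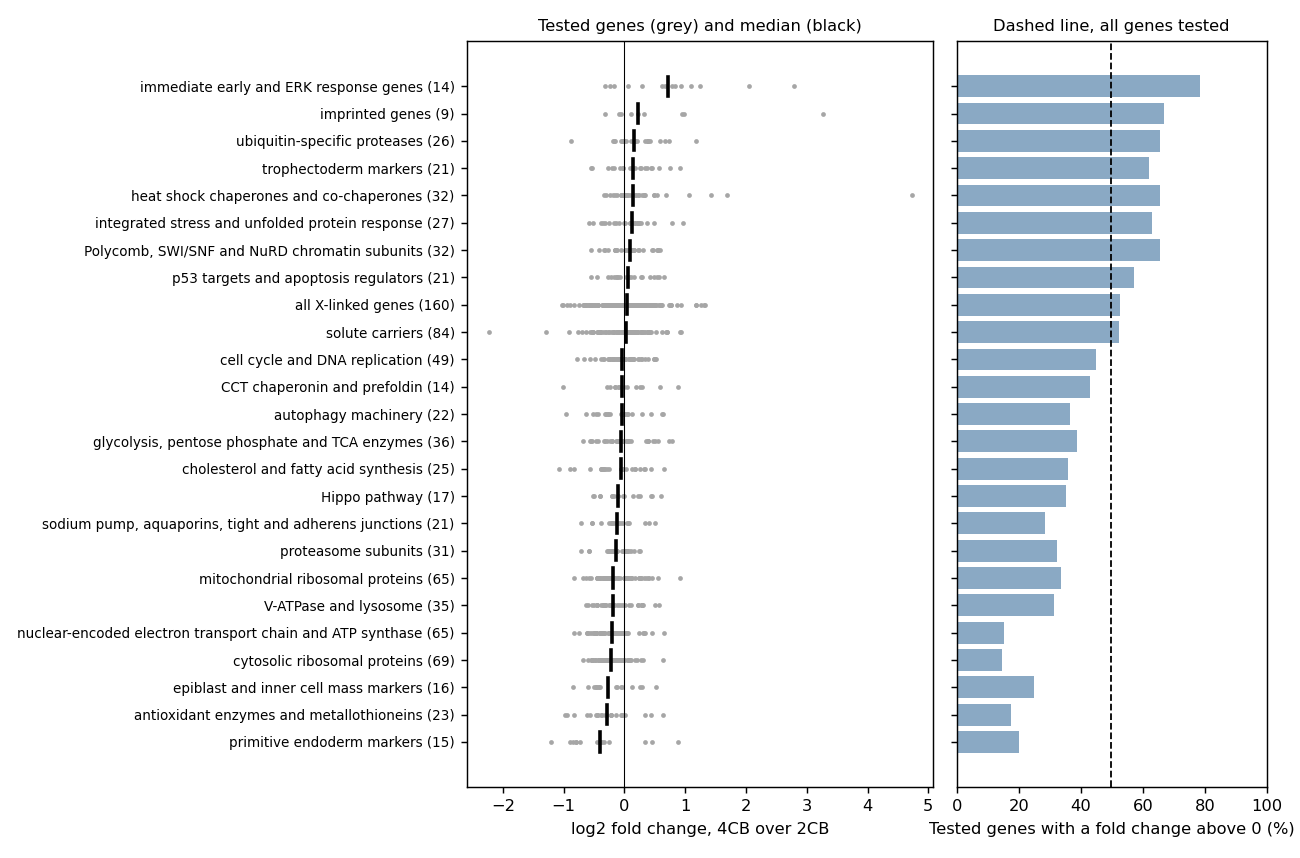
Log2 fold changes of 4CB over 2CB for the 24 gene lists with at least 3 tested genes and for all X-linked genes (left; grey points are tested genes, black bars medians, numbers in brackets the genes tested) and the percentage of tested genes in each list above 0 (right; the dashed line marks 49.8% for all genes tested). Immediate early genes have the highest median at 0.72 and primitive endoderm markers the lowest at -0.41.

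Trophectoderm genes had overlapping levels in the 2 stages. All 6 trophectoderm markers fixed for the check had UMIs in each of the 12 embryos, with summed levels of 2526 to 5359 CPM in 2CB and 2547 to 5185 CPM in 4CB embryos. Gata3, a trophectoderm transcription factor, had a log2 fold change of -0.07 (SE 0.21), Cdx2, the master regulator of the lineage, one of -0.02 (SE 0.33), and Krt18, a keratin of the outer epithelium, one of -0.27 (SE 0.34). The sign of the first 2 estimates turned under several alternative fits. Eomes, a T-box factor of trophoblast stem cells, had one of 0.75 (SE 0.43, edgeR adjusted p = 0.894) and was at 158 to 1259 CPM in 2CB and at 473 to 1243 CPM in 4CB embryos. Of 21 trophectoderm genes tested, 0 were higher and 0 lower at an unadjusted p of 0.05, against 2.81% and 2.6% of all genes.

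Each embryo had UMIs of at least 4 of the 6 fixed epiblast markers. These summed to 321 to 932 CPM in 2CB and 238 to 753 CPM in 4CB embryos. Nanog, a pluripotency factor, had a log2 fold change of -0.51 (SE 0.47), Sox2 one of -0.43 (SE 0.37) and Esrrb one of 0.26 (SE 0.36), with edgeR adjusted p-values of 0.925, 0.910 and 0.965. Of 16 epiblast and inner cell mass genes tested, 0 were higher and 0 lower at an unadjusted p of 0.05 (median -0.27). Fgf4, the epiblast signal that induces primitive endoderm, was at 0 to 22.5 CPM in 2CB and 0 to 24.5 CPM in 4CB embryos, and at 0 in 2CB replicate 6 and in 3 of the 4CB embryos. It did not pass the filter, and without a filter its edgeR adjusted p was 0.578. Pou5f1, the defining gene of the inner cell mass, was nearly undetected, with 14 UMIs in the 2CB and 6 in the 4CB embryos. It was as low in the other pool, with means of 6.98 CPM in 1C and 2.16 CPM in 8CB embryos. It overlaps the antisense gene Gm19553 near its 3′ end. The paper detected OCT4, its protein, in the inner cell mass of most 4CB embryos with a cavity. The low count is thus no measure of the inner cell mass, and its cause was not tested. The 37 mitochondrially encoded genes of the table were at 0 in all 12 embryos.

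The primitive endoderm genes Sox17 and Pdgfra ranged widely within each stage. Sox17, which marks the committed lineage, stood at 93.03, 224, 271, 175, 6.13 and 6.54 CPM in 2CB and at 47.2, 0, 295, 52.8, 0 and 137 CPM in 4CB embryos. Pdgfra, a receptor of the same cells, stood at 39.5, 142, 166, 187, 30.6 and 13.1 CPM in 2CB and at 11.8, 6.99, 206, 100, 0 and 123 CPM in 4CB embryos. Sox17 was lowest in 2CB replicates 5 and 6 and in 4CB replicates 2 and 5, where Pdgfra was low as well, and among 4CB embryos both were highest in replicate 3. In 4CB replicates 2 and 5, 3 UMIs correspond to 20.98 and 24.5 CPM. The log2 fold changes were -0.45 (SE 0.80) for Sox17 and -0.26 (SE 0.69) for Pdgfra. Gata4, which did not pass the filter, was at 0 to 83.0 CPM in 2CB and 0 to 180 CPM in 4CB embryos. Gata6, which is expressed earlier and more widely, was present in each embryo, at 231 to 396 CPM in 2CB and 192 to 818 CPM in 4CB embryos (log2 fold change 0.34, SE 0.31). The 6 fixed markers summed to 335 to 1005 CPM in 2CB and 266 to 1218 CPM in 4CB embryos, with medians of 578 and 584 CPM. Of 15 primitive endoderm genes tested, 12 estimates were below 0 (median -0.41), 2 were lower at an unadjusted p of 0.05 (13.3%, against 2.6% of all genes) and 0 were higher. The 2 were P4ha2, a collagen prolyl hydroxylase, and Lrp2, an endocytic receptor.

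**Figure D5:**
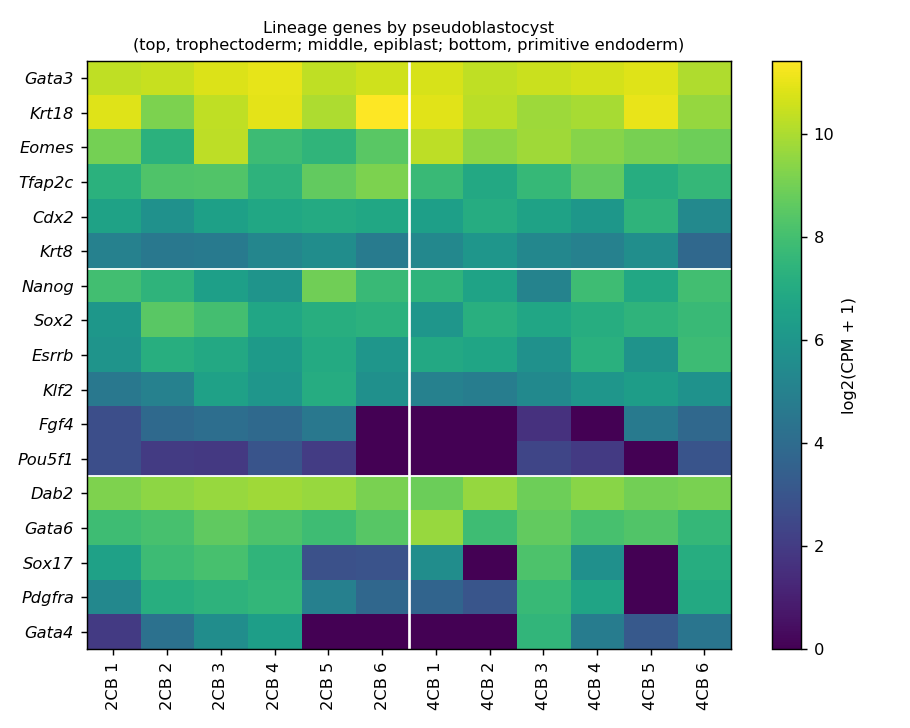
Levels of 17 lineage genes in each pseudoblastocyst as log2(CPM + 1), with trophectoderm genes on top, epiblast genes in the middle and primitive endoderm genes below; the vertical line divides 2CB from 4CB embryos. Sox17, Pdgfra and Gata4 range from 0 to bright within each stage or close to it, while Gata3 and Krt18 are bright in all 12 embryos.

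Among 9 tested imprinted genes, 3 were higher in 4CB embryos at an unadjusted p of 0.05 (33.3%, against 2.81% of all genes) and 0 were lower (against 2.6%). H19, a maternally expressed noncoding RNA of trophoblast, had the second largest estimate of all the genes tested (log2 fold change 3.27, SE 0.94) but an edgeR adjusted p of 0.678. Its levels were 14.1, 8.71, 113, 123, 9.19 and 108 CPM in 2CB and 19.7, 1588, 1394, 46.3, 384 and 61.6 CPM in 4CB embryos. Thus 3 of the 4CB embryos were above all others and 3 were inside the 2CB range. Its neighbour Igf2 had an estimate of 0.98 (SE 0.46) and Kcnq1ot1 one of 0.95 (SE 0.33), with edgeR adjusted p-values of 0.894 and 0.886.

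Lists of other stress systems gave no call. Of 21 tested p53 targets and apoptosis regulators and of 27 genes of the integrated stress and unfolded protein responses, 0 were higher and 0 lower at an unadjusted p of 0.05, with medians of 0.06 and 0.12. The same held for 49 cell cycle and DNA replication genes (median -0.03), 36 enzymes of glycolysis and related pathways (-0.06), 17 Hippo pathway genes (-0.10), 21 genes of the sodium pump and junctions (-0.12) and 32 Polycomb, SWI/SNF and NuRD subunits (0.09). Cholesterol and fatty acid synthesis had 2 lower of 25 (8%, against 2.6% of all genes), Fasn at -1.08 (SE 0.35) and Ebp at -0.90 (SE 0.37), neither past the adjusted threshold.

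The sexes of the embryos were unequal between stages. At least 20 UMIs of the Y-linked genes Ddx3y, Eif2s3y, Kdm5d and Uty were found in 3 of 6 2CB embryos (replicates 2, 4 and 6) and in 1 of 6 4CB embryos (replicate 6), and at most 4 UMIs in the others. Xist, which coats the inactive X chromosome of females, was at 378 to 573 CPM in the other 2CB and at 228 to 686 CPM in the other 4CB embryos. With the 4 Y-positive embryos left out, an alternative added after the data had been seen, none of Hspa1b, Phlda1 and Jun was called. They then had log2 fold changes of 5.01, 2.33 and 3.74, each with an edgeR adjusted p of 0.286. The 1 gene called was Hspa1a, which passed the filter there only through the 4CB embryos in which it was high, so its call supports nothing. Hspa1b was at 34.1, 0 and 6.54 CPM in the Y-positive 2CB embryos and at 0 to 22.6 CPM in the others. It was at 500 CPM in the 1 Y-positive 4CB embryo and at 0 to 543 CPM in the others. Whether sex had a part in its levels was not tested. Of 160 tested X-linked genes, 8 were higher (5%, against 2.81% of all genes) and 2 lower (1.25%, against 2.6%) at an unadjusted p of 0.05, and the median was 0.03.

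Markers of cells that can adhere to fertilized oocytes were mostly at or near 0. Of 6 cumulus and granulosa markers, Ptx3, Has2 and Fshr had 0 UMIs in all 12 embryos, Tnfaip6 and Amhr2 had 7 and 18 in all, and Star had 178 UMIs in the 2CB and 95 in the 4CB embryos. The summed level of the 6 was highest in 4CB replicate 5, the embryo low in Hspa1a, at 180 CPM (22 UMIs, all of Star), against 19.6 to 90.2 CPM in the other embryos. Its part in the levels of that embryo was not tested. The 4 sperm transcripts summed to at most 2 UMIs per embryo.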

How the data were processed

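Libraries of single embryos were made with CEL-Seq2, which tags the 3′ end of each transcript with an embryo barcode and a UMI. Per the study's methods and the submitters' processing notes, the authors aligned reads to GRCm38 with HISAT2, counted with HTSeq version 0.6.1 and kept 1 read per UMI. The deposited values are whole-number UMI counts per gene and embryo, not normalized, for 52366 genes, and 51633 were given symbols. The annotation release and strand setting are not given in the sources used here. The largest count, 53029, exceeds the 4096 sequences that a UMI of 6 bases allows, so a gene's count is not limited to 1 per UMI sequence. A further 24 columns of the table matched no listed sample and were not used.

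The 12 embryos were fitted with edgeR 4.0.16 (R 4.3.3; TMM, filterByExpr by stage, quasi-likelihood test; genes were called at an adjusted p below 0.1 after Benjamini-Hochberg, a threshold taken from the study's methods). 4CB was compared with 2CB with no covariate, and DESeq2 1.42.0 was the first alternative. The other alternatives were DESeq2 size factors, 2 filters, thinning, a stricter threshold, a replicate block, all 24 embryos, leaving out each embryo, and, added later, leaving out Y-positive embryos. Fits were tested on simulated counts. Genes were named if called by edgeR or DESeq2, if the stages did not overlap at a mean of 20 CPM or more (8 each way), as up to 2 each way per list at an unadjusted p of 0.05, or as fixed lineage genes with Hspa1a. Other members of the lists, and Cox6b1, were named after their values were seen. The members and lists were chosen with earlier results of these data known, so lists have counts and medians and no test. CPM carry the counting error of few UMIs: 3 UMIs equal 2.18 to 24.5 CPM, depending on the embryo. Floors cover counting error only.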

Additional observations from a re-analysis of the deposited data

Results flagged for a closer look

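Values of single embryos were checked against the other 5 of their stage with Dixon's criterion, in 82 groups of 6. It marked 14 groups, and chance marks about 1 in 20. The total of 4CB replicate 4, 1130360 UMIs, stood apart from the next highest at 501642. Among the heat shock genes, Hspa1a was at 16.3 CPM in 4CB replicate 5, the lowest of its stage. Among the genes called by DESeq2, C230085N15Rik was at 69.2 CPM in 2CB replicate 3, Gm11408 at 1128 CPM in 4CB replicate 4 and Gpx1 at 1917 CPM in 4CB replicate 6, each the highest of its stage. Among the genes without overlap, Ccdc18 was highest in 4CB replicate 6 (68.5 CPM), Mmadhc (87.1 CPM) and Minos1 (652 CPM) were highest in 2CB replicate 2, and Vps13c was highest in 2CB replicate 4 (77.8 CPM) and at 0 CPM in 4CB replicate 2, where 3 UMIs equal 20.98 CPM. Among the lineage genes, Eomes was highest in 2CB replicate 3 (1259 CPM), Tfap2c in 4CB replicate 4 (412 CPM), Gata6 in 4CB replicate 1 (818 CPM) and Gata4 in 4CB replicate 3 (180 CPM).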

How the results depend on the processing

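The count of 3 called genes was 2 to 4 with DESeq2 size factors, with at least 5 UMIs in 6 embryos, after thinning, at an adjusted p of 0.05 and with all 24 embryos. It was 11 with DESeq2, 86 with no filter on low counts (58 higher and 28 lower, over 21523 genes) and 1 without the Y-positive embryos. Leaving out 1 embryo gave 1 to 8 genes: 1 without 4CB replicate 3, 5 without 4CB replicate 5, 7 without 4CB replicate 6 and 8 without 2CB replicate 3. Hspa1b was called in all 12 of these fits, Phlda1 in 11 and Jun in 6, and the cause of the losses was not tested. In the fits without a 2CB embryo or without 4CB replicate 5, Hspa1b could pass the filter through the 5 high 4CB embryos alone. Its calls there are therefore descriptions and no support. Hspa1a entered 10 fits, with log2 fold changes of 4.95 to 7.27. Apart from the one with no filter, it entered them wholly or mainly through the 4CB embryos in which it was high, so its calls there support nothing. The direction of Hspa1b, Phlda1 and Jun was the same in every fit run, with log2 fold changes of 4.40 to 5.59, 1.90 to 2.33 and 2.37 to 3.74.

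Replicate numbers were not shown to pair embryos. The correlation of deviations between same-numbered embryos ran from -0.194 to 0.081, and 1 of 6 numbers matched itself best. With the replicate number as a block, 1 gene was called, Jun (adjusted p = 0.0365), while Hspa1b and Phlda1 had adjusted p-values of 0.173 and 0.198 at log2 fold changes of 4.66 and 1.98.

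Signs turned for a few lineage genes with estimates near 0. Cdx2 was at 0.0075 with DESeq2 size factors, 0.25 after thinning and 0.018 without the Y-positive embryos, where Gata3 was at 0.11 and Esrrb at -0.047. Leaving out 1 embryo gave -0.22 to 0.12 for Cdx2, -0.14 to 0.032 for Gata3, -0.043 to 0.48 for Gata6 and -0.86 to 0.039 for Pdgfra. Sox17 stayed below 0 but ran from -1.39 to -0.11 over the 21 fits. Of the 25 list medians, 8 lay on both sides of 0 over the 21 fits, among them p53 targets (-0.18 to 0.31), Hippo genes (-0.18 to 0.12), cell cycle genes (-0.12 to 0.11), glycolysis (-0.14 to 0.07) and cholesterol and fatty acid synthesis (-0.20 to 0.19). The primitive endoderm median ran from -0.73 to -0.21 and the immediate early one from 0.58 to 0.84. The difference in genes detected was -1662 at full depth and ran from -20.3 to 196 when 1 embryo was left out. The difference in total UMIs ran from -474428 (without 4CB replicate 4, exact permutation p = 0.0303) to -168803. Depth limits the sparse genes: 16176 of the genes with a UMI were not tested.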
